A study of Mus musculus with 12 samples.

Results

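The genes described are those whose products build the 5 protein complexes of oxidative phosphorylation, measured in mouse liver before and after removal of 2/3 of the organ. A gene was taken when the platform annotation gave its probe set 1 symbol and that symbol began as the subunit families do: Ndufa, Ndufb, Ndufc, Ndufs or Ndufv with a number (complex I), Sdha to Sdhd (complex II), Uqcr (complex III), Cox4 to Cox8 (complex IV) or Atp5 (complex V). This gave 79 of 17097 genes, of which 34 fell to complex I, 4 to complex II, 7 to complex III, 17 to complex IV and 17 to complex V. Each gene was read from its brightest probe set, and 38 of the 79 had further probe sets. Ndufs5-ps, Cox7a2l and Ndufa4 match these names but are not known as subunits of the complex the names assign them to, and Ndufs5-ps is named as a pseudogene whose signal cannot be told apart from that of Ndufs5 here. Cox7b was not analysed here.

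Complex I (NADH dehydrogenase) and complex II (succinate dehydrogenase, which is also an enzyme of the citric acid cycle) pass electrons to ubiquinone, complex III (cytochrome bc1) passes them to cytochrome c, and complex IV (cytochrome c oxidase) passes them to oxygen. Complexes I, III and IV pump protons as they do so, and complex V, the ATP synthase, uses the proton gradient to make ATP. Hepatocytes are rich in mitochondria, and after partial hepatectomy the remaining hepatocytes re-enter the cell cycle while they go on serving the body's metabolism. The protein made from Socs2 damps the signal of the growth hormone receptor.

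Wildtype mice were C57BL/6, and Socs2-null mice were kept on that background; how the null allele was made is not given in the sources used here. All were adult. Within each genotype, livers came from age-matched animals without surgery (0 h) and from animals 24 h or 36 h after 2/3 hepatectomy, the surgical removal of most of the liver. Each of the 6 groups had 2 arrays, and each array carried the combined RNA of 3 animals, so n is a number of pools and a spread is one between pools. No group had a sham operation, so a comparison with 0 h also holds the surgery and the hour of harvest. The design asks what the loss of Socs2 does to resting and to regenerating liver. Whole liver was used, so fewer cells of a type and less RNA per cell cannot be told apart.

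Values are probe set intensities in the deposited arbitrary units, and changes are differences of mean log2(intensity + 16) ± standard error from limma, with p-values adjusted over all 17097 genes by Benjamini-Hochberg and a threshold of 0.05. The number of arrays limits the precision, and levels are compared between arrays, not between probe sets. Median intensities ran from 43.5 to 52.3 over the 12 arrays, and arrays correlated across probe sets with Pearson's r of 0.985 to 0.995 within the 6 same-group pairs, beside 0.951 to 0.995 in the remaining 60. Socs2 read 116.4 to 545.96 on wildtype arrays and 23.15 to 29.47 on Socs2-null arrays, each of the latter under that array's brightest tag control probe set, the measure of background used here. All 8 hepatocyte markers (Alb, Apoa1, Ttr, Cps1, Hnf4a, Serpina1a, Tat and Cyp2e1) lay above background in every group. A single subunit gene, Cox7b2, lay under background in all 6 groups, and the other 78 lay above it in at least 1.

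Promoters of 63 of the 79 genes were found in the RefSeq promoter table (build GRCm38.p6), and 3 are shown because their genes carry the results below: Ndufa8, which passed the threshold upwards, and Sdha and Ndufs8, which passed it downwards. Each run holds the 250 bases before the start, read 5′ to 3′ on the gene's strand, and capitals mark matches to the letters GCGCNTGCG, the site of nuclear respiratory factor NRF1, on either strand. All 3 genes lie on the minus strand, at chr2:36049339-36049588 (Ndufa8), chr13:74350241-74350490 (Sdha) and chr19:3912775-3913024 (Ndufs8).
Ndufa8: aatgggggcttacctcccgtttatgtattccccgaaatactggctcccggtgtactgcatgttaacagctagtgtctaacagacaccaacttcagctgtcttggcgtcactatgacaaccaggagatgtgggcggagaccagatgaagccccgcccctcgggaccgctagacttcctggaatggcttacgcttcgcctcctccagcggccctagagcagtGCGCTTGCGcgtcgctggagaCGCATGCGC
Sdha: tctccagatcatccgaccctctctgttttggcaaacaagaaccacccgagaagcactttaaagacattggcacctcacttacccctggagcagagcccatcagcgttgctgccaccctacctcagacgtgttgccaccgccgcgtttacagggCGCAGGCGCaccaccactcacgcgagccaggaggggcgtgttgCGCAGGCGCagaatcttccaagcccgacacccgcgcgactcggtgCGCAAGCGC
Ndufs8: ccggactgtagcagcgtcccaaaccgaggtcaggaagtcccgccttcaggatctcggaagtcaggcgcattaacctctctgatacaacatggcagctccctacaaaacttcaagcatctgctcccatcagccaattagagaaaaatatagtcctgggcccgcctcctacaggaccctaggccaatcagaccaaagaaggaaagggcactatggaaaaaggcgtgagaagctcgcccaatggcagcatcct

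Ndufa8 had 2 matches, the nearer 9 to 1 bases before its start, Sdha had 3, and no match to these letters lay in the Ndufs8 window. Counted from 250 bases before to 50 after the start on both strands, 23 of the 63 promoters (36.5%) held a match to GCGCNTGCG, against 7.12% of the 27025 genes in the table. Letters of the ETS family factor GABPA (CCGGAAG) were found in 15 (23.8% against 9.93%), those of YY1 (AAGATGGCG) in 7 (11.1% against 1.64%) and those of the ERR receptors (AAGGTCA) in 7 (11.1% against 5.38%). Among 15 genes with a window that passed the threshold downwards in a comparison with 0 h, 3 held the NRF1 letters, 6 the ETS letters, 1 the YY1 letters and 1 the ERR letters. A match is a description of letters and shows no binding.

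Loss of Socs2 moved no subunit gene of any complex past the threshold. The tests at single times rest on 2 pools a group, and Socs2 itself did not pass in any of them. Its standard error there was 0.42, against at most 0.20 (Sdhd) for the subunit genes. Socs2 is therefore no measure of the precision of the subunit tests. In limma Socs2 stood at -3.20 at 0 h (adjusted p = 0.213), -2.23 at 24 h (0.404) and -2.46 at 36 h (0.236). Socs2 passed only on the mean of the 3 times (-2.63, adjusted p = 0.0154). In limma, 0 of 79 genes passed between Socs2-null and wildtype liver at 0 h, 24 h and 36 h and on the mean of the 3 times, where 0%, 0.0117%, 0.0234% and 0.0292% of all genes did. At an unadjusted p under 0.05 the counts were 0, 0, 0 and 1 of 79, against 4.95%, 8.24%, 6.44% and 10.2% of all genes. The 1 gene was Cox6b2, the testis isoform of a complex IV subunit, at -0.13 ± 0.056 on the mean of the times (adjusted p = 0.453), with 4 of its 6 groups under background. Median genotype differences of the 79 genes were 0.0016 at 0 h, -0.017 at 24 h and -0.041 at 36 h, beside -0.037, -0.017 and -0.0081 over all genes. On the mean of the times, complexes I to V had medians of -0.026, -0.035, -0.014, -0.020 and -0.018, beside -0.022 over all genes.

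**Figure D1:**
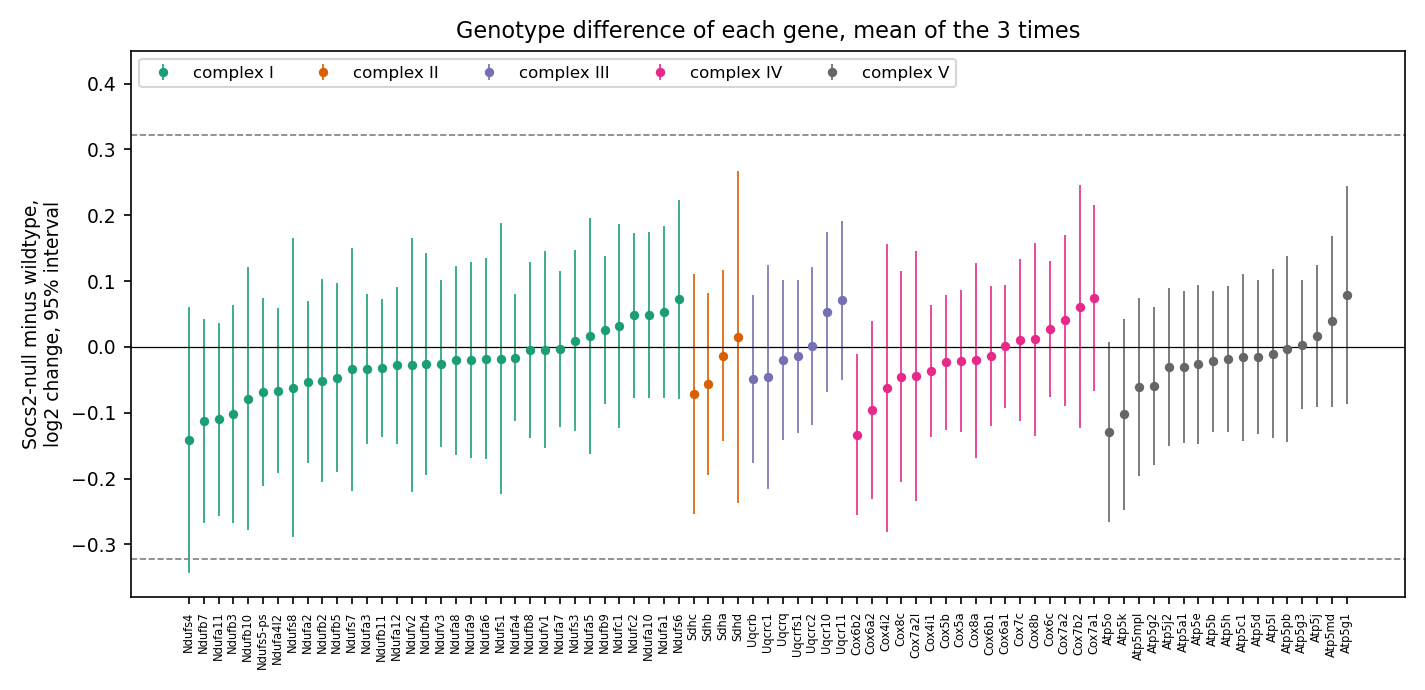
Socs2-null minus wildtype log2 change of each of the 79 genes on the mean of the 3 times, with 95% intervals from limma (6 pools per genotype), coloured by complex; dashed lines mark a 1.25-fold difference either way. The intervals of 78 genes lie between the lines, and that of Ndufs4 reaches past the lower one.

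A missed threshold does not show equal levels, so the intervals are given too. On the mean of the times, the 95% intervals of 78 of 79 genes lay within a 1.25-fold difference, the exception being Ndufs4, a complex I subunit needed for its assembly, at -0.14 with a bound 0.34 from 0. At single times the intervals were wider, and 57, 46 and 50 genes at 0, 24 and 36 h stayed within 1.25-fold, while 79, 79 and 77 stayed within 1.5-fold. The plot of genotype differences shows this for each gene.

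The genes with the most extreme test statistics differed from time to time. At 0 h these were Uqcr10, a small complex III subunit (0.16 ± 0.096), Atp5g3, which encodes the ATP synthase c-ring protein (0.11 ± 0.077), Cox6b2 (-0.15 ± 0.097) and Ndufa4l2, a paralog of Ndufa4 (-0.20 ± 0.099). Ndufa4l2 was dim, with 43.3 and 44.9 on the wildtype and 41.3 and 32.0 on the Socs2-null arrays, the latter under background. At 24 h they were Ndufa10, an accessory subunit of the complex I membrane arm (0.18 ± 0.10), Ndufs6 (0.17 ± 0.12), Uqcrb, a ubiquinone-binding subunit of complex III (-0.16 ± 0.10), and Atp5g2, another c-ring gene (-0.16 ± 0.095). At 36 h the highest were Cox8b, a muscle isoform (0.19 ± 0.12), and Cox7a2l, known for its part in joining complexes III and IV (0.16 ± 0.15). Cox8b was dim, near background. The lowest were Ndufs5-ps (-0.18 ± 0.11) and Atp5o, a stalk subunit of the ATP synthase (-0.24 ± 0.11). None of these genes at any of the times was under an adjusted p of 0.670 in limma.

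Atp5o at 36 h read 3537 and 3065 on the wildtype arrays and 2771 and 2818 on the Socs2-null arrays. Both Socs2-null values lay below both wildtype values, and the 95% interval of the difference ran from -0.47 to 0.0016. On the mean of the times Atp5o stood at -0.13 ± 0.062, and the highest statistics belonged to Cox7a1 (0.074 ± 0.064) and Uqcr11 (0.071 ± 0.055). Arrays of the genotypes did not overlap for 18 genes higher and 25 lower in Socs2-null liver at 0 h (all genes 13.9% and 27.9%), for 4 and 8 at 24 h (15% and 19.1%) and for 4 and 19 at 36 h (15.2% and 17.6%).

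After hepatectomy the changes of the subunit genes were small, and on the intensities as deposited most of those past the threshold were lower. At 24 h, 12 of 79 genes passed in wildtype liver (15.2%, against 25.8% of all genes), 1 higher and 11 lower, where all genes had 10.2% higher and 15.6% lower. In Socs2-null liver 9 passed (11.4%, against 24.2% of all genes), 1 higher and 8 lower, beside 10.8% and 13.5% of all genes. At 36 h, 4 passed in wildtype (5.06% against 15.2%), 1 higher and 3 lower beside 5.69% and 9.5% of all genes. In Socs2-null liver 5 passed at 36 h (6.33% against 20%), 1 higher and 4 lower beside 9.84% and 10.1%. In each of the 4 comparisons the share of subunit genes past the threshold was below the share of all genes. The comparisons at 24 h and 36 h share their 0 h arrays.

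**Figure D2:**
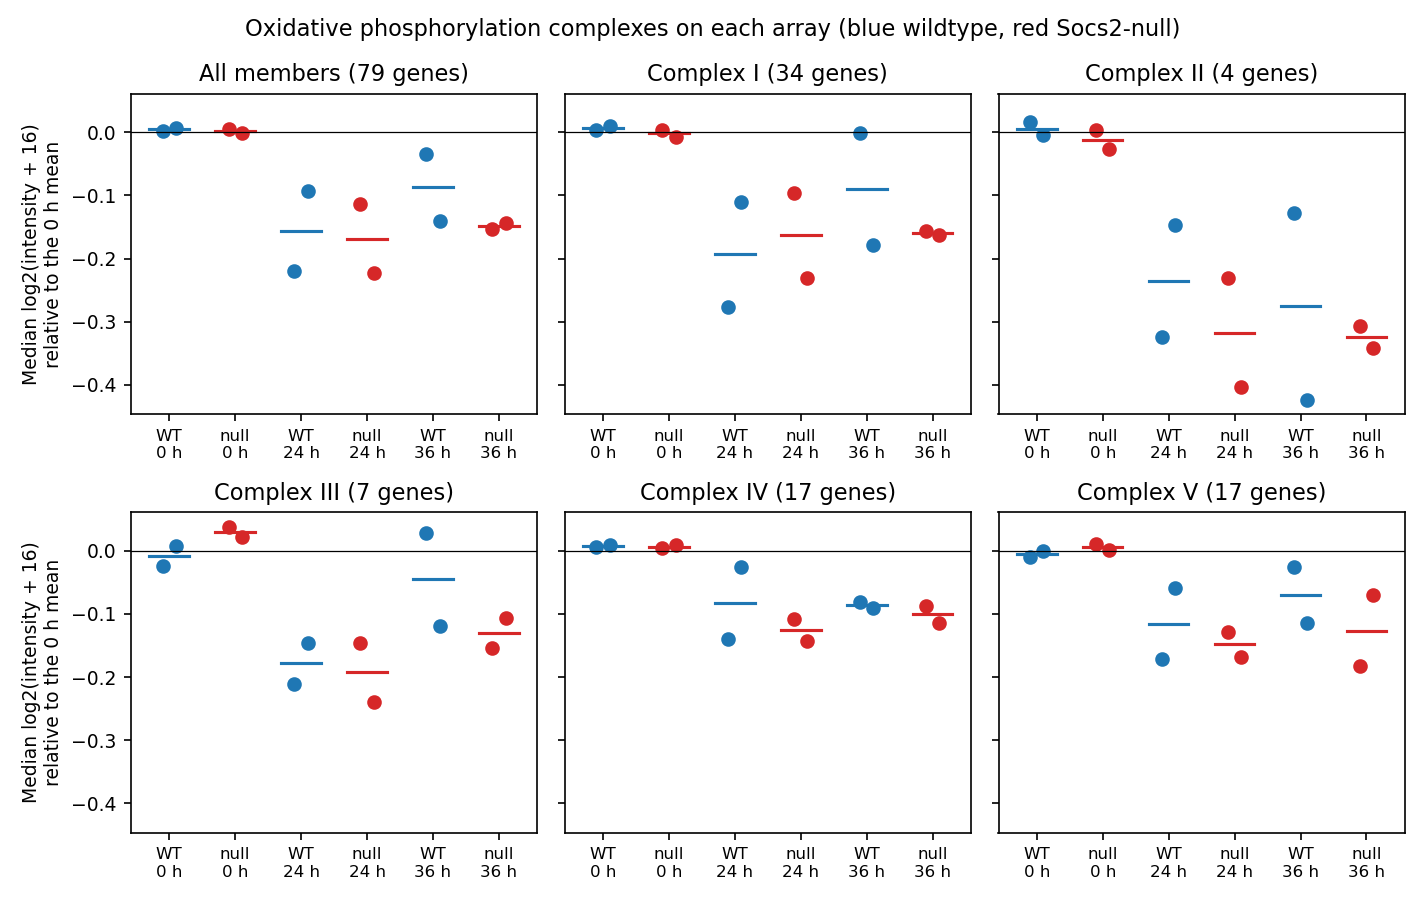
Median over the genes of each complex of log2(intensity + 16) relative to each gene's mean over the 0 h arrays of both genotypes, for the 12 arrays (points; n = 2 pools per group, lines are group means). Complex II has the lowest group means after hepatectomy, with an SD between arrays of up to 0.21.

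The 79 genes had a median change of -0.15 (wildtype) and -0.17 (Socs2-null) at 24 h, then -0.10 and -0.14 at 36 h, beside -0.080, -0.039, -0.065 and -0.026 over all genes. On single arrays, the median over the 79 genes relative to the 0 h mean stood at -0.22 and -0.093 (wildtype 24 h) and at -0.11 and -0.22 (Socs2-null 24 h). At 36 h it stood at -0.034 and -0.14 in wildtype and at -0.15 and -0.14 in Socs2-null liver, while the 0 h arrays lay between -0.0010 and 0.0068. Every array after hepatectomy was below every array at 0 h, and the SD between the arrays of a group reached 0.090 (n = 2). The 0 h arrays lie near 0 in part because they are the reference of this measure. By gene, 64 and 69 of 79 had a change below 0 at 24 h and 61 and 63 at 36 h (wildtype and Socs2-null).

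These counts depend on the scale and on single arrays. Centring the log2 values of each array on their median moved the median of all genes by 0.12 in the wildtype 24 h comparison, to 0.041, and the subunit genes past the threshold became 3 (2 higher, 1 lower) in wildtype and 1 (higher) in Socs2-null liver at 24 h, and 1 (higher) and 3 (2 higher, 1 lower) at 36 h. Measured from the median of all genes, the subunit median stood at -0.068 and -0.13 at 24 h and at -0.036 and -0.11 at 36 h, and 51, 66, 49 and 62 of 79 genes lay below the all-gene median in wildtype and Socs2-null liver at 24 h, then at 36 h. Quantile normalization and array weights raised most of the counts, while the replicate number as a block lowered each of them. After quantile normalization they were 15 and 20 at 24 h and 8 and 18 at 36 h. With array weights they were 28 and 7, then 9 and 10, where the 7 of Socs2-null liver at 24 h was lower. The wildtype count at 24 h was 0 without replicate 2 of wildtype 0 h, 1 without its replicate 1 and 1 without replicate 1 of wildtype 24 h, and the Socs2-null count was 0 and 1 without replicates 1 and 2 of Socs2-null 0 h and 2 without replicate 2 of its 24 h group.

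Markers of other cells moved between the same groups. The summed intensity of the 8 hepatocyte markers was 93734 to 93977 and 93329 to 94938 on wildtype and Socs2-null arrays at 0 h, 82060 to 85249 and 78060 to 81299 at 24 h, and 81248 to 82451 and 78872 to 81820 at 36 h. Of 3 erythroid markers (Hba-a1, Alas2 and Slc4a1) the sum was 8179 to 8424 at 0 h and 2673 to 4340 afterwards, and Hba-a1 and Alas2 passed the threshold downwards in all 4 comparisons. Of 7 cycling markers the sum was 970.4 to 1011 at 0 h and 1158 to 2533 afterwards, with Pcna and Mcm2 past the threshold upwards at 24 h in both genotypes. Kupffer cell markers summed to 6189 to 7261 at 0 h and 6426 to 9501 afterwards (12 measured), sinusoidal endothelial markers to 3626 to 3966 and 2458 to 3496 (9), and stellate cell markers to 3817 to 4301 and 3504 to 4429 (9, Col1a2 under background). Neutrophil markers (4) summed to 187.85 to 230.69 at 0 h and to 296.55 to 468.44 afterwards, with 1 Socs2-null 24 h array at 1703, and lymphocyte markers (7, Nkg7 under background) to 445.9 to 463.64 and then 372.77 to 436.74, so that neither sum overlapped between 0 h and later arrays. The neutrophil markers did not move together. At 24 h S100a8 and S100a9 stood at 1.49 and 1.18 in wildtype and at 2.32 and 2.25 in Socs2-null liver. Csf3r and Mpo were lower, at -0.16 and -0.41, then -0.53 and -0.30. Cholangiocyte markers (5, Cftr under background) summed to 296.01 to 363.05 at 0 h and 293.76 to 365.04 later. The hybridization controls, RNA added to each sample, averaged 9.86 to 9.98 on the log2 scale at 0 h, 9.34 to 9.90 at 24 h and 9.01 to 9.23 at 36 h. The part of these in the subunit results was not tested.

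**Figure D3:**
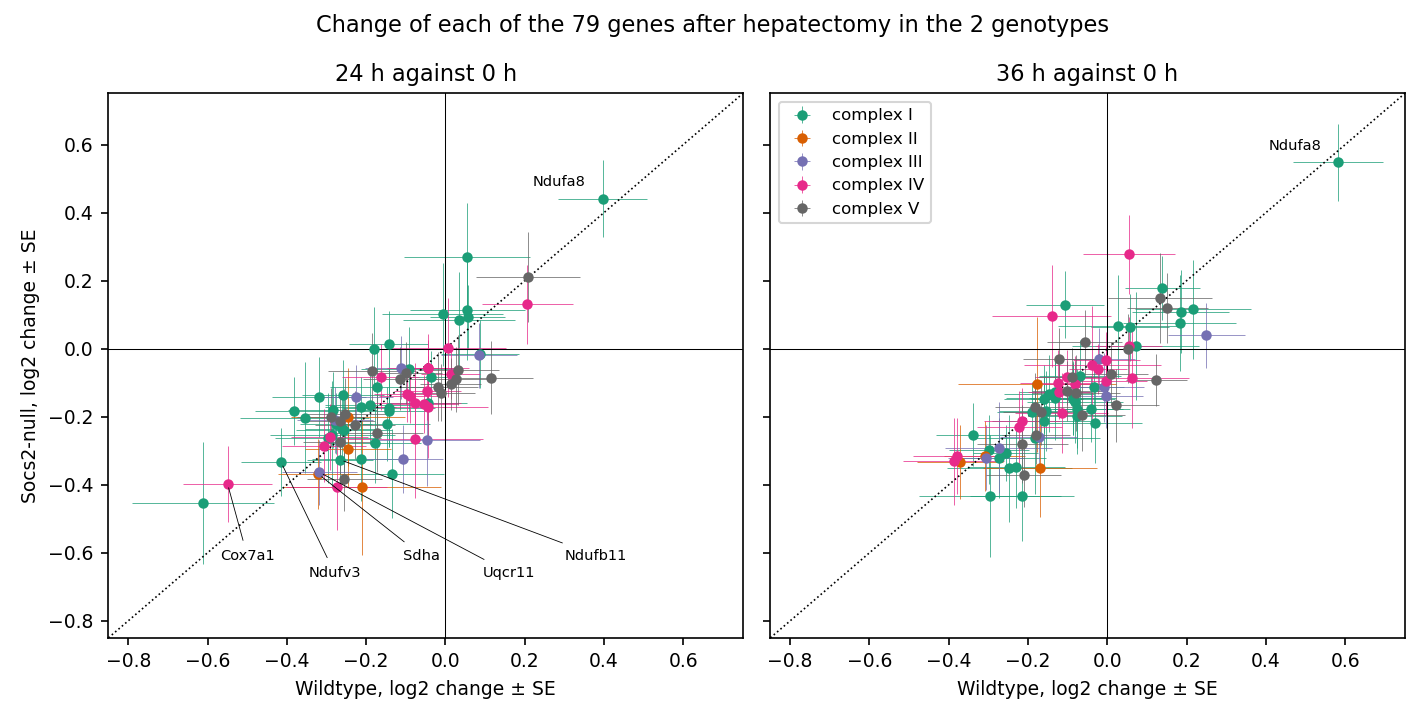
Log2 change after hepatectomy of each of the 79 genes in wildtype (horizontal) and Socs2-null liver (vertical) at 24 h and 36 h, coloured by complex. Most points lie in the lower left (62 at 24 h, 58 at 36 h), and Ndufa8 lies farthest to the upper right at 36 h.

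Complex I, the NADH dehydrogenase, which has 34 of the 79 genes, held Ndufa8, the gene past the threshold upwards in all 4 comparisons with 0 h. At 24 h, 1 of its 34 genes was higher and 5 lower in wildtype liver, and 1 higher and 2 lower in Socs2-null liver; at 36 h the counts were 1 and 1, then 1 and 2. The shares past the threshold were 17.6% and 8.82% at 24 h and 5.88% and 8.82% at 36 h, all below those of all genes (25.8%, 24.2%, 15.2% and 20%). Its median changes were -0.18 and -0.17 at 24 h and -0.097 and -0.15 at 36 h, which is -0.099, -0.13, -0.033 and -0.13 relative to all genes.

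Ndufa8, an accessory subunit on the intermembrane-space side of complex I, read 2048 and 1971 in wildtype and 1964 and 1988 in Socs2-null liver at 0 h, 2493 and 2815, then 2721 and 2653, at 24 h, and 3322 and 2738, then 2977 and 2816, at 36 h. All arrays after hepatectomy lay above all arrays at 0 h. It rose by 0.40 ± 0.11 in wildtype (adjusted p = 0.0260) and 0.44 ± 0.11 in Socs2-null liver (0.0166) at 24 h, and by 0.58 ± 0.11 (0.0070) and 0.55 ± 0.11 (0.00639) at 36 h, a factor of 1.32 to 1.5. Among the subunit genes it alone passed in both genotypes at both times, and its genotype difference in response was 0.044 at 24 h (95% interval -0.31 to 0.39) and -0.035 at 36 h (-0.39 to 0.32). It has 1 probe set. Leaving out wildtype 0 h replicate 1 or 2 or wildtype 24 h replicate 2 ended the wildtype 24 h call (adjusted p up to 0.15), with the change at 0.31 to 0.52 over all alternatives.

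Ndufv3, a small subunit of the NADH-oxidizing end, moved the other way. It read 4839 and 5037 in wildtype and 4816 and 4702 in Socs2-null liver at 0 h, 3520 and 3889, then 4101 and 3469, at 24 h, and 4082 and 3942, then 3834 and 3910, at 36 h. The 0 h arrays lay above all later ones. The change was -0.41 ± 0.10 (adjusted p = 0.0129) and -0.33 ± 0.10 (0.0321) at 24 h, and -0.30 (0.068) and -0.30 (0.059), outside the threshold, at 36 h. Ndufb11, a membrane-arm subunit, read 4265 to 4336 on the 0 h arrays and 3383 to 3647 on the later ones, again with no overlap. It fell by 0.27 ± 0.083 and 0.33 ± 0.083 at 24 h and by 0.31 ± 0.083 in Socs2-null liver at 36 h, where wildtype stood at -0.26 (adjusted p = 0.058).

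Of the core subunits that carry flavin or iron-sulfur clusters, Ndufs8 passed the threshold in wildtype liver at 24 h. It read 2588 and 2583 in wildtype and 2531 and 2398 in Socs2-null liver at 0 h, 1537 and 1848, then 2089 and 1539, at 24 h, and 2308 and 1914, then 1555 and 2134, at 36 h. All later arrays were below all 0 h arrays, but the arrays of each later group lay further apart than those of either 0 h group. The change was -0.61 ± 0.18 in wildtype at 24 h (adjusted p = 0.0287), and -0.45 (0.087) in Socs2-null liver, -0.30 (0.29) and -0.43 (0.12) at 36 h. Both other bright probe sets of Ndufs8 gave -0.59 and -0.64 in wildtype at 24 h, and a dim one -0.092.

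The remaining cores did not pass in any comparison with 0 h. Ndufv1, which binds NADH, stood at -0.32 and -0.14 at 24 h in wildtype and Socs2-null liver, and Ndufs1 at -0.35 and -0.20. Ndufv2 stood at -0.0073 and 0.10 and Ndufs7, which carries the last iron-sulfur cluster before ubiquinone, at 0.055 and 0.11. Ndufs3 stood at -0.15 and -0.22.

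Accessory subunits of complex I past the threshold in 1 group were lower. Ndufa10 read 3027 and 3070 at 0 h against 2329 and 2346 at 24 h in wildtype liver, without overlap (-0.38 ± 0.10, adjusted p = 0.0182). In Socs2-null liver it read 2986 and 3022 against 2784 and 2507 (-0.18), and the genotype difference of 0.20 in the response has an interval from -0.11 to 0.51. Ndufa3 read 4044 and 3997 against 3157 and 3487 in wildtype at 24 h (-0.28 ± 0.090). Ndufa7 read 3004 and 2949 against 2424 and 2276 in wildtype at 36 h (-0.34 ± 0.094). Ndufb3 read 2039 and 2040 against 1391 and 1631 in Socs2-null liver at 36 h (-0.43 ± 0.13). In each of these pairs the arrays did not overlap. Ndufa4 read 5557 to 6068 over the 12 arrays.

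Complex II, which feeds electrons from succinate, had the lowest median of the complexes in all 4 comparisons with 0 h, at -0.25 (wildtype) and -0.33 (Socs2-null) at 24 h, then -0.24 and -0.32 at 36 h. Relative to all genes these were -0.17, -0.29, -0.18 and -0.30, and all 4 of its genes lay below the all-gene median in each comparison. With 4 genes and 2 arrays a group this is a description. The complex median over single arrays was -0.32 and -0.15, then -0.23 and -0.40, at 24 h, and -0.13 and -0.42, then -0.31 and -0.34, at 36 h, against -0.027 to 0.016 on the 0 h arrays.

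Sdha, the flavoprotein that oxidizes succinate, read 2762 and 2658 in wildtype and 2753 and 2685 in Socs2-null liver at 0 h, 2060 and 2279, then 2208 and 2000, at 24 h, and 2282 and 2088, then 2150 and 2214, at 36 h. No later array reached a 0 h array. It fell by 0.32 ± 0.10 (adjusted p = 0.0408) and 0.37 ± 0.10 (0.0236) at 24 h, and stood at -0.31 (0.065) and -0.32 (0.051) at 36 h. A further bright probe set of Sdha gave -0.43 and -0.53 at 24 h, while dim ones near background gave 0.11 and 0.0071 in wildtype. Sdhb, the iron-sulfur subunit, read 4516 and 4483 in wildtype and 4375 and 4300 in Socs2-null liver at 0 h, and 3183 to 4040 on all later arrays, again lower without overlap. It passed in wildtype at 36 h (-0.37 ± 0.11, adjusted p = 0.0414), and stood at -0.25 and -0.30 at 24 h and at -0.33 in Socs2-null liver at 36 h.

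The membrane anchors did not pass. Sdhc read 1086 and 1180, then 1180 and 1046, at 0 h, and 852 to 1095 on later arrays, so that the ranges overlapped. Sdhd read 773 and 736, then 746 and 826, at 0 h, and 505 to 815 later, with wide gaps between arrays of a group.

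**Figure D4:**
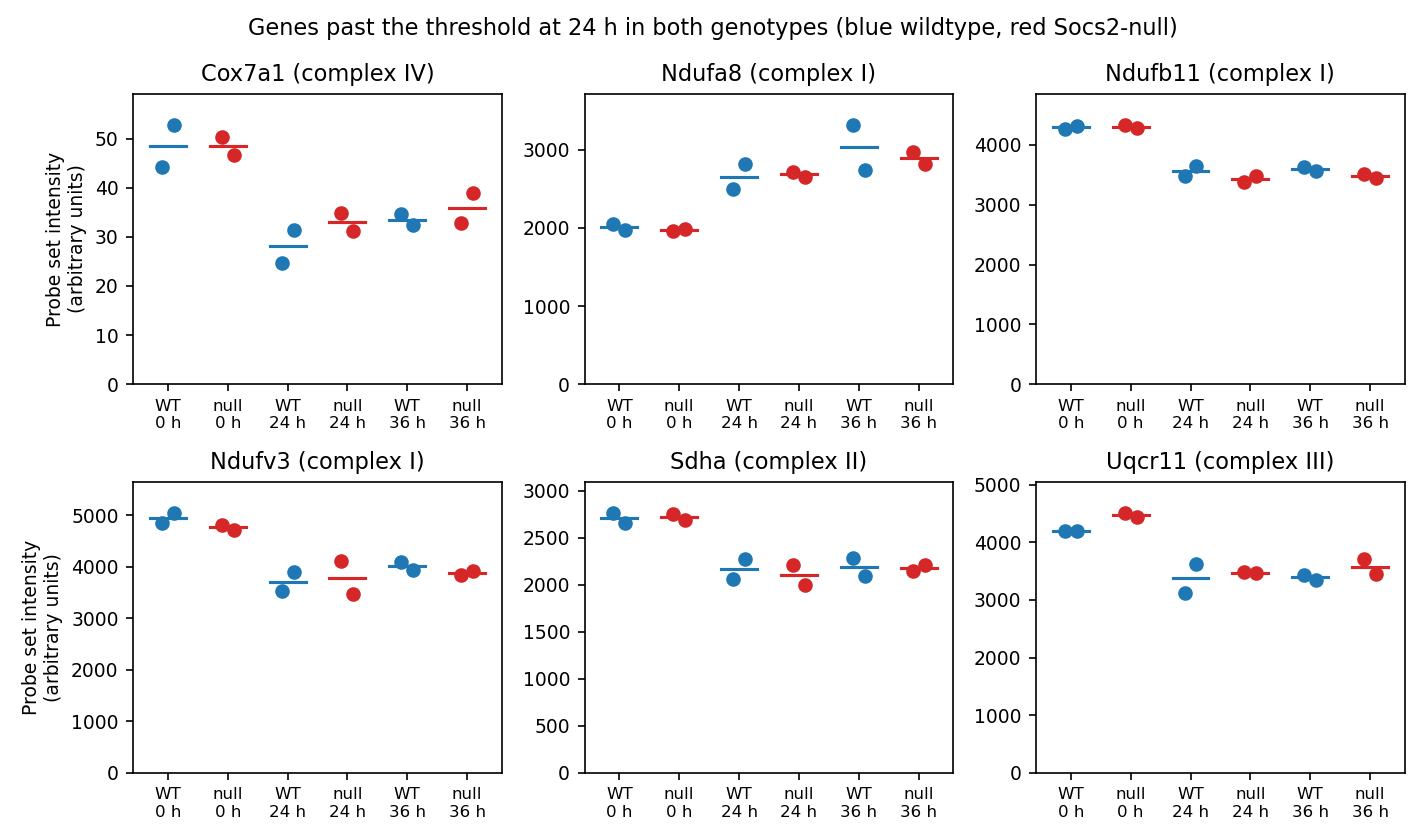
Probe set intensity on each of the 12 arrays (points, lines are group means, n = 2 pools) for the 6 genes past the threshold at 24 h in both genotypes. Ndufa8 is higher on every array after hepatectomy than at 0 h, and the other 5 are lower.

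Complex III had median changes of -0.11 and -0.21 at 24 h and -0.022 and -0.14 at 36 h. After centring on array medians, the wildtype values turned to 0.010 at 24 h and 0.054 at 36 h. Without centring, the wildtype 36 h value of -0.022 turned to 0.013 when wildtype 36 h replicate 2 was left out. Uqcr11, its smallest subunit, read 4194 and 4197 in wildtype and 4506 and 4432 in Socs2-null liver at 0 h, 3122 and 3623, then 3479 and 3460, at 24 h, and 3441 and 3340, then 3708 and 3448, at 36 h. The 0 h arrays lay above all others. Uqcr11 fell by 0.32 ± 0.095 (adjusted p = 0.0315) and 0.36 ± 0.095 (0.0184) at 24 h and by 0.32 ± 0.095 (0.0361) in Socs2-null liver at 36 h, where wildtype stood at -0.31 (0.052).

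Uqcrb read 2687 and 2654 at 0 h against 2049 and 2214 at 24 h in Socs2-null liver (-0.32 ± 0.10, adjusted p = 0.0370), without overlap. In wildtype it read 2579 and 2546 against 2392 and 2363, and the genotype difference in the response, -0.22, had an interval from -0.53 to 0.096. Uqcrfs1, the Rieske iron-sulfur protein at the catalytic centre, stood between -0.11 and -0.022 in the 4 comparisons and passed in none. Uqcrq read 4473 to 5925 over the 12 arrays.

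Complex IV had a median of -0.076 in wildtype liver at 24 h and stood at -0.14 in Socs2-null liver, then at -0.10 and -0.095 at 36 h. The wildtype 24 h value was 0.0036 relative to all genes, and turned to 0.045 after centring on array medians. Cox4i1, the common form of the subunit that regulates the enzyme, read 6100 to 6233 on the 0 h arrays and 5502 to 6092 later, without overlap, at -0.089 and -0.14 at 24 h and -0.12 and -0.13 at 36 h, and did not pass. Cox6a1 read 8774 to 9721 over the 12 arrays.

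The complex IV genes past the threshold were tissue-restricted isoforms, of which Cox7a1 and Cox6b2 lay near or under background. Cox7a1, the heart and skeletal muscle isoform of subunit VIIa, read 44.2 and 52.8 in wildtype and 50.3 and 46.7 in Socs2-null liver at 0 h, 24.8 and 31.4, then 34.8 and 31.2, at 24 h, and 34.6 and 32.4, then 32.8 and 38.9, at 36 h. Later arrays lay below all 0 h arrays. The wildtype groups at 24 h and 36 h lay under background, so its level was at least 1.13-fold lower at 24 h and at least 1.18-fold lower at 36 h, where the tests gave adjusted p = 0.00602 and 0.0418. In Socs2-null liver it fell by 0.40 ± 0.11 at 24 h (0.0246) and stood at -0.32 (0.068) at 36 h. Cox8c, a testis isoform, read 148 and 158 at 0 h against 107 and 116 at 24 h in Socs2-null liver (-0.41 ± 0.13, adjusted p = 0.0374), without overlap. Cox6b2 passed in wildtype at 24 h (adjusted p = 0.0456), with 40.5 and 40.2 against 31.5 and 28.6, both groups under background.

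The ubiquitous partners of these isoforms did not pass. Cox7a2 read 5230 to 5707 at 0 h and 4645 to 5659 later, Cox8a 3536 to 3639 and 2957 to 3803, and Cox6b1 5098 to 5302 and 4625 to 5399. Cox6a2, a muscle isoform, read 67.5 to 78.2 at 0 h and 53.1 to 64.8 later, without overlap, and did not pass. Cox8b lay under background at 0 h in both genotypes and read 33.2 to 46.1 later; after centring on array medians it passed upwards in wildtype at 24 h and in Socs2-null liver at 36 h, and no size is given because its 0 h level is only a bound. Cox4i2 and Ndufa4l2 lay under background in 4 and 2 groups. Of 7 muscle markers, Tnni3 lay under background in every group and 1 to 5 did so in a group; they summed to 291.3 to 324.2 at 0 h and 254.4 to 328.6 later, and their part in the values of the muscle isoforms was not tested.

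Complex V, the ATP synthase, had medians of -0.11 and -0.11 at 24 h and -0.079 and -0.12 at 36 h, and the wildtype 24 h value turned to 0.0068 after centring on array medians. Atp5e, the epsilon subunit of the central stalk, read 3772 and 3575 in wildtype and 4000 and 3714 in Socs2-null liver at 0 h, 3102 and 3048, then 3067 and 2841, at 24 h, and 3285 and 3059, then 3074 and 2880, at 36 h. All later arrays were below the 0 h arrays. It fell by 0.38 ± 0.095 (adjusted p = 0.0140) at 24 h and by 0.37 ± 0.095 (0.0186) at 36 h in Socs2-null liver, and stood at -0.26 (0.069) and -0.21 in wildtype. The genotype differences in these responses, -0.13 and -0.16, had intervals from -0.42 to 0.17 and from -0.45 to 0.13.

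Of the stalk genes, Atp5h and Atp5j passed in wildtype at 24 h, while Atp5o (-0.25, adjusted p = 0.106 in limma) and Atp5pb (-0.18, 0.241) did not. Atp5h (subunit d) read 5929 and 5729 at 0 h against 4668 and 5026 (-0.27 ± 0.088, adjusted p = 0.0447). Atp5j (coupling factor 6) read 5058 and 5097 against 4089 and 4214 (-0.29 ± 0.086, 0.0296). Neither overlapped between these groups. The catalytic subunits stayed outside the threshold, Atp5b (beta) at -0.011 and -0.13 and Atp5a1 (alpha) at -0.10 and -0.071 at 24 h. Of the c-ring genes, Atp5g1 stood at 0.21 in both genotypes at 24 h and did not pass, and Atp5g3 read 6877 to 7877 over the 12 arrays.

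Over all 4 pools of both genotypes, arrays at 24 h lay wholly below those at 0 h for 41 of 79 genes (51.9%, against 22.5% of all genes) and wholly above for 2, Atp5g1 and Ndufa8 (2.53% against 17.9%). At 36 h this held for 32 genes below (40.5% against 20.1%) and 2 above, Ndufa12 and Ndufa8 (2.53% against 15.9%). At both times 23 genes lay below (29.1% against 14.6%) and Ndufa8 above (1.27% against 12.2%). By complex, the genes wholly below at 24 h were 20 of 34 in complex I, 3 of 4 in II, 5 of 7 in III, 6 of 17 in IV and 7 of 17 in V. Genes below at both times came from every complex: Sdha and Sdhb, Uqcr11 and Uqcrq, 4 of complex IV, 5 of complex V and 10 of complex I.

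Between 24 h and 36 h no subunit gene passed in limma in either genotype (0 of 79, where 0.24% and 0.00585% of all genes did), with 3 and 0 genes at an unadjusted p under 0.05 (14.9% and 7.18% of all genes). The median change was 0.052 in wildtype, with 59 genes above 0, and 0.019 in Socs2-null liver, with 47 above 0, beside 0.0057 and 0.015 over all genes. The highest statistics in wildtype were those of Ndufc1, a small complex I subunit (0.28 ± 0.12), and Uqcrc2, a core protein of complex III (0.22 ± 0.094). The lowest were those of Uqcrc1, the other core protein (-0.23 ± 0.13), and Cox8b, which was dim (-0.15 ± 0.12). In Socs2-null liver the highest were Uqcrb (0.21 ± 0.10) and Atp5md, a small ATP synthase subunit (0.18 ± 0.10). The lowest there were Ndufs4 (-0.26 ± 0.16) and Ndufb7 (-0.14 ± 0.12).

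The responses of the genotypes share no arrays and were set side by side. Over the 79 genes, which are not independent replicates, the wildtype and Socs2-null changes at 24 h had Pearson's r = 0.79 and Spearman's rho = 0.75, and at 36 h 0.85 and 0.84; over all genes r was 0.888 and 0.866. The sign was shared by 70 and 71 of 79 genes. Of the genes past the threshold at 24 h, 6 (Cox7a1, Ndufa8, Ndufb11, Ndufv3, Sdha and Uqcr11) passed in both genotypes, which is 50% of the wildtype and 66.7% of the Socs2-null genes. At 36 h Ndufa8 did, 25% and 20%. The test of the genotype difference in the response passed for 0 of 79 genes at 24 h and at 36 h in limma, with 0 at an unadjusted p under 0.05 (all genes 0% and 0.00585% adjusted, 3.78% and 3.74% unadjusted). Over the 79 genes the median difference was 0.0018 at 24 h and -0.035 at 36 h, beside 0.027 and 0.048 over all genes. Of the 79, 46 lay below the all-gene median at 24 h and 70 at 36 h. At 36 h, complex I had 32 of 34 below, II 3 of 4, III 7 of 7, IV 13 of 17 and V 15 of 17. This lean was not tested. The highest and lowest statistics of the test were those of Ndufa10 (0.20), Ndufa4l2 (0.16), Atp5mpl (-0.20) and Uqcrb (-0.22) at 24 h, and of Ndufa4l2 (0.24), Cox8b (no size given, both 0 h groups under background), Uqcr10 (-0.21) and Atp5g3 (-0.21) at 36 h. Arrays of the groups compared did not overlap and lay in opposite order in the genotypes, or at different times between them, for 9 of 79 genes (11.4%, against 14.8% of all genes). A gene past the threshold in 1 genotype is not shown to differ between them.

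**Figure D5:**
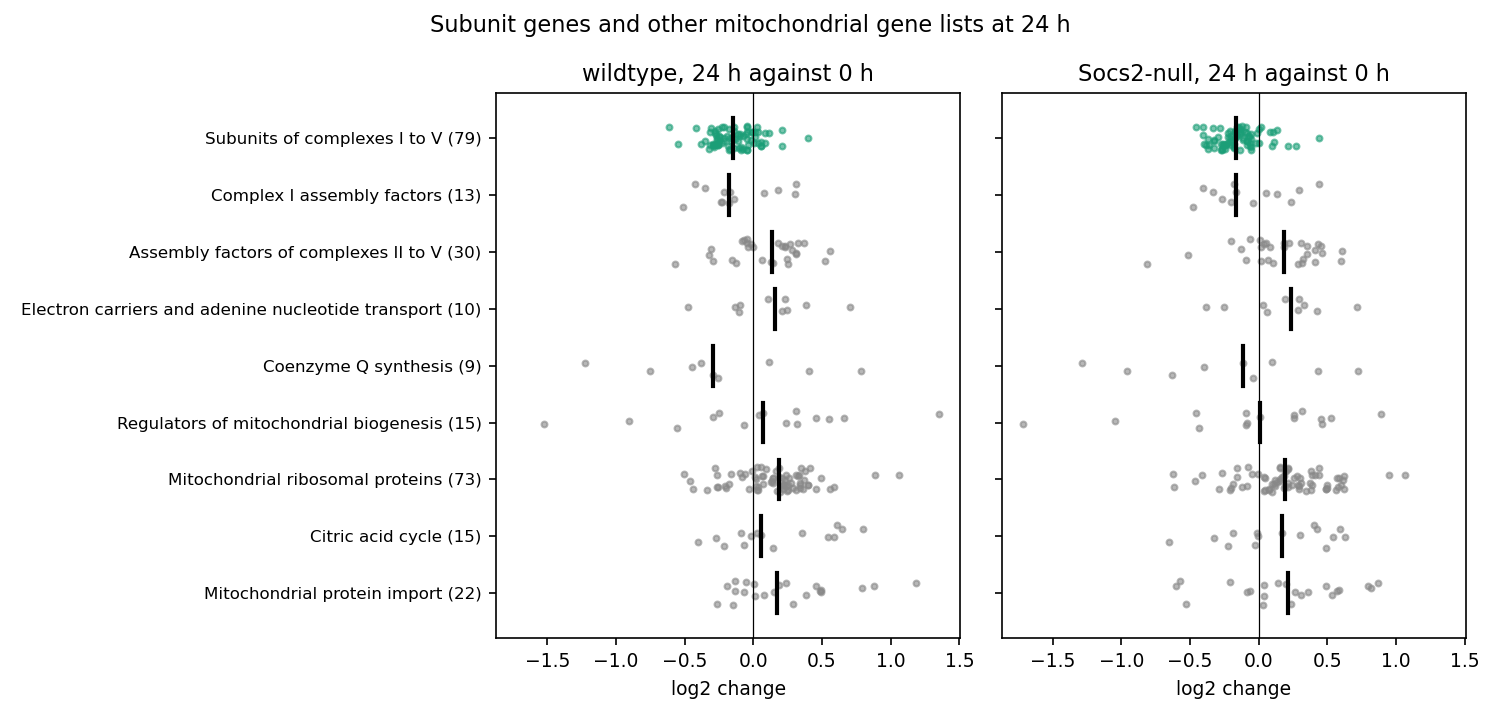
Log2 change at 24 h against 0 h in wildtype and Socs2-null liver for the 79 subunit genes (green) and 8 other lists of mitochondrial genes (grey), with the number of genes in brackets and the median as a bar. The subunit genes have medians of -0.15 and -0.17 and run from -0.61 to 0.40 in wildtype and from -0.45 to 0.44 in Socs2-null liver. The medians of the other lists run from -0.29 to 0.18 in wildtype and from -0.17 to 0.24 in Socs2-null liver.

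Other genes of the pathway were counted in the same way, beside 25.8% and 24.2% of all genes past the threshold at 24 h and 15.2% and 20% at 36 h in wildtype and Socs2-null liver, and no list was tested against the subunit genes or against all genes. At 24 h the shares were 30% in both genotypes for electron carriers, 0% in both for complex I assembly factors, 13.3% and 23.3% for other assembly factors, 33.3% and 44.4% for coenzyme Q genes, 33.3% in both for regulators of biogenesis, 16.4% and 26% for mitochondrial ribosomal proteins, 33.3% and 40% for the citric acid cycle and 31.8% and 40.9% for protein import. Among electron carriers and nucleotide transporters (10 measured), 2 were higher and 1 lower at 24 h in each genotype, with medians of 0.16 and 0.24, and 3 and 1, then 2 and 1, at 36 h. Cycs, cytochrome c itself, read 2578 and 2545 in wildtype and 2539 and 2436 in Socs2-null liver at 0 h, 4066 and 4314, then 4104 and 4092, at 24 h, and 4384 and 3840, then 3895 and 4286, at 36 h. All its later arrays lay above all 0 h arrays. It rose by 0.71 ± 0.098 (adjusted p = 0.00111) and 0.72 ± 0.098 (0.000732) at 24 h, and by 0.68 and 0.71 at 36 h. Slc25a3, the mitochondrial phosphate carrier, rose by 0.39 and 0.33 at 24 h, and Etfa, an electron carrier of fatty acid oxidation, fell by 0.47 and 0.39.

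Complex I assembly factors (13 measured) had medians of -0.18 and -0.17 at 24 h with 0 past the threshold in either genotype. At 36 h 2 were lower in wildtype (Ndufaf3 at -0.61 and Ndufaf1 at -0.52), and in Socs2-null liver Ndufaf1 was lower (-0.69) and Ndufaf4 higher (0.53). Assembly factors of complexes II to V (30) had medians of 0.13 and 0.18 at 24 h, with 3 higher and 1 lower, then 5 and 2, and at 36 h 0 and 2, then 3 and 2. Fmc1, an ATP synthase assembly factor, fell by 0.57 and 0.81, while Atpaf1, another, rose by 0.56 and 0.61 and Ttc19, which acts on complex III, by 0.52 and 0.60. Coenzyme Q genes (9) had medians of -0.29 and -0.11, with 1 higher and 2 lower, then 1 and 3, and the same counts at 36 h. Coq7, a hydroxylase of coenzyme Q synthesis, rose by 0.78 and 0.72, and Coq10b and Coq9 fell by 0.76 and 0.96 and by 0.44 and 0.40.

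Regulators of mitochondrial biogenesis (15) had medians of 0.068 and 0.0062 at 24 h, with 2 higher and 3 lower, then 1 and 4, and at 36 h 1 and 3, then 3 and 2. Ppargc1b, a transcriptional coactivator of oxidative genes, read 326 and 342 in wildtype and 300 and 458 in Socs2-null liver at 0 h against 96.7 and 116, then 99.0 and 104, at 24 h. It was lower on every array after 0 h, at -1.52 ± 0.18 (adjusted p = 0.00042) and -1.72 ± 0.18 (0.000166) at 24 h. Ppara, a nuclear receptor of fatty acid oxidation, fell by 0.91 and 1.05, and Gabpa, a subunit of an ETS family activator, by 0.55 and 0.44. Mitochondrial ribosomal protein genes (73) had medians of 0.18 and 0.19 at 24 h, with 10 higher and 2 lower, then 16 and 3, and at 36 h 1 and 1, then 9 and 2. Mrpl17 rose by 0.89 and 1.07 and Mrps18b by 1.06 and 0.95. Citric acid cycle genes (15) had medians of 0.059 and 0.17, with 4 higher and 1 lower, then 5 and 1, and at 36 h 3 and 1, then 5 and 2; Idh3a rose by 0.80 and 0.59, Mdh2 by 0.55 and 0.54, and Suclg2 fell by 0.40 and 0.65. Protein import genes (22) had medians of 0.17 and 0.22, with 7 higher and 0 lower, then 6 and 3, and at 36 h 5 and 0, then 6 and 0; Tomm20, an outer membrane receptor, rose by 1.18 and 0.86. No gene of the 8 lists passed between the genotypes in limma at 0, 24 or 36 h (all genes 0%, 0.0117% and 0.0234%). At an unadjusted p under 0.05 there were 0, 5 and 10 of 187, beside 4.95%, 8.24% and 6.44% of all genes.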

How the data were processed

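Liver RNA from 12 pools (6 groups, 2 pools each) was labelled from 10 micrograms of total RNA per pool, per the labels' protocols, and hybridized to Affymetrix mouse arrays. The deposited values are the authors' processed probe set intensities on a linear scale, from 1 to 24717; how background correction and normalization were done is not given in the sources used here. Of 45141 probe sets, 28898 carry 1 gene symbol in the platform annotation, 551 several and 15588 none, and 104 are controls. Each gene was read from the probe set with the highest mean log2(intensity + 16), and no gene was filtered out, which left 17097 genes. No further scaling was applied to the deposited intensities before taking log2. Under background means that both arrays of a group lay below their brightest of 17 tag control probe sets, and bounds were computed against that level.

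One group-means model was fitted to all 12 arrays (6 residual degrees of freedom) in R 4.3.3 with limma 3.58.1, whose eBayes step used the trend and robust options (statmod 1.5.0). The 12 comparisons were two-sided, and p-values were adjusted by Benjamini-Hochberg over the 17097 genes, with a threshold of 0.05. The fit was tested on simulated data. Complexes and lists are described by counts and medians with no test. The members, the lists and the rule for named genes were chosen with earlier results of these data known. The rule names, in each comparison, the genes past the threshold, or the 2 highest and 2 lowest statistics, and further the brightest gene of each complex, tissue-restricted isoforms and their partners, catalytic cores, genes under background in every group, and up to 3 genes of each other list. Promoters came from RefSeq tables of build GRCm38.p6. Plots used matplotlib 3.10.9 under Python 3.11.15.

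Results were recomputed, where the alternative gave a value, with quantile normalization or array medians set equal (centring), a pseudocount of 1 or 64, the dimmest 50 % of genes removed, a gene's probe sets averaged, probe sets marked for cross-hybridization left out, plain eBayes, array weights, the replicate number as a block, only the arrays compared, the hybridization controls as a covariate, symbols not known as subunits left out (medians only), and each array left out in turn.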

Additional observations from a re-analysis of the deposited data

Results flagged for a closer look

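For 9 subunit genes groups did not overlap and lay in opposite order at different times or in the other genotype, which is 11.4% of the 79 beside 14.8% of all genes under the same rule over 6 pairs of comparisons. The genotype difference (Socs2-null minus wildtype) changed between 0 h and 24 h by 0.197 for Ndufa10 and by -0.217 for Uqcrb. Between 0 h and 36 h it changed by -0.214 for Atp5g3, -0.19 for Atp5mpl, -0.0785 for Ndufa4, 0.237 for Ndufa4l2, -0.218 for Ndufb3 and -0.187 for Ndufs6. The limma test of each of these differences gave adjusted p = 0.9999 at 24 h and 0.9989 at 36 h. For Atp5g3 and Ndufa4l2 the response from 0 h to 36 h also ran in opposite directions in the genotypes, 0.12 in wildtype against -0.091 in Socs2-null liver for Atp5g3, and -0.11 against 0.13 for Ndufa4l2, which was dim. Atp5g2 moved from 24 h to 36 h by -0.085 in wildtype and 0.11 in Socs2-null liver, a difference of 0.194 that was not tested.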

How the results depend on the processing

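The counts of subunit genes past the threshold were 0 for genotype, 36 h against 24 h and the genotype difference in response in the reported analysis and in all 24 alternatives of each. The counts against 0 h moved. In wildtype at 24 h (12) they were 3 after centring, 28 with array weights, 27 with only the arrays compared and 0 to 15 when an array was left out: 1 and 0 without replicate 1 and 2 of wildtype 0 h, 1 and 4 without those of wildtype 24 h, and 5 without either one of Socs2-null 0 h. In wildtype at 36 h (4) they were 8 after quantile normalization, 1 after centring, 8 without the dimmest 50 % of genes, 9 with array weights, 0 with the hybridization covariate and 0 to 7 with an array left out: 0 without either array of wildtype 0 h, 1 without either of Socs2-null 0 h or without replicate 2 of wildtype 36 h, and 7 without replicate 1 of Socs2-null 24 h. In Socs2-null liver at 24 h (9) they were 20 after quantile normalization, 1 after centring, 1 with only the arrays compared and 0 to 11 with an array left out. At 36 h (5) they were 18, 3, 12 without the dimmest genes, 10 with array weights, 1 with only the arrays compared, 2 with the covariate and 1 to 10 with an array left out: 2 without either array of wildtype 0 h, 1 without either of Socs2-null 0 h, 10 without either of Socs2-null 24 h, 8 without either of wildtype 36 h, and 2 and 3 without replicate 1 and 2 of Socs2-null 36 h. With the replicate number as a block they were 7, 2, 8 and 3, in the order given; deviations of same-numbered pools correlated at -0.50 to 0.35 over 15 pairs of groups, 3 of them above 0.1, so the numbers do not pair the pools. Ndufa8 kept its sign in all 24 alternatives of each comparison, at 0.31 to 0.52 and 0.44 to 0.72 in wildtype and 0.39 to 0.52 and 0.50 to 0.59 in Socs2-null liver at 24 h and 36 h, and lost its call in 3, 3, 4 and 1 of them. Values that changed sign were these. With the mean of all probe sets, Uqcr10 stood at -0.22 between genotypes at 0 h and at 0.14 for the 36 h difference in response. With each array left out in turn, Cox7a2l between genotypes at 36 h ran from -0.033 (without wildtype 36 h replicate 1) to 0.34, and Ndufs6 at 24 h fell to -0.00027 without Socs2-null 24 h replicate 1. In wildtype against 0 h, Ndufb3 at 24 h ran from -0.29 to 0.022 (without 24 h replicate 1) and Uqcrb at 36 h from -0.090 to 0.073 (without 36 h replicate 2), with 0.0011 without 0 h replicate 1. Uqcrb in wildtype was 0.014 at 24 h and 0.068 at 36 h after centring, and 0.10 with the covariate. With the covariate, at 36 h Cox6b2 was 0.053 and 0.046 and Cox8c 0.071 and 0.11 in wildtype and Socs2-null liver, and Cox8b 0.17 from 24 h to 36 h in wildtype. Of 104 values of single genes, 87 could be recomputed without the dimmest genes and 100 without cross-hybridizing probe sets. The causes were not tested. The covariate runs with time, so a time effect and its level cannot be told apart, and 6 dim genes near background have imprecise values.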
